A study of Mus musculus with 6 samples.

Results

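The LIF and interleukin 6 signalling family was taken as 9 gene symbols, and all 9 of them are among the 15528 symbols of the raw gene count table. They are the ligands Lif, Il6 and Il11, the receptor chains Il6st, Lifr, Osmr and Il6ra, the transcription factor Stat3 and the feedback inhibitor Socs3. All 9 passed the filter on low counts, which kept 11208 genes. The members were listed by function, with earlier results of these data known.

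The data are poly(A) RNA-seq libraries of mouse lymphatic endothelial cells, so named by the labels, which form the inner wall of lymphatic vessels. The treated cells carry the label Red blood cells treatment and the others the label Control, with 3 libraries each and all cells taken at 24 h; the labels name no strain, genotype, age, dose of red cells or further agent. By its title the series concerns subarachnoid bleeding and the traffic between brain and cervical lymph nodes, and the comparison asks which transcripts such cells gain or lose beside red blood cells. Nothing in the labels says that the replicates were separate cultures, so p-values reflect the spread between libraries, which may be technical.

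Cytokines of this family signal through Il6st, the gp130 receptor chain that all of them share. Interleukin 6 and interleukin 11 first bind a chain of their own, whereas LIF joins gp130 to LIFR, and oncostatin M, the ligand of OSMR, joins gp130 to OSMR. JAK kinases on the receptor then phosphorylate STAT3, which switches on genes that include Socs3, whose protein binds gp130 and the kinases and shuts the signal off. These cytokines are known for their part in inflammation, in the acute phase response and in the control of endothelial growth.

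The libraries held 17263359 to 18381419 counts, and 13458 to 13731 genes had at least 1 count. Control replicate 2 stood apart: its counts differed from those of the other controls by a chi-square of 26.8 and 28.2 per gene, against 1.99 between those 2. Its departure followed gene model length, with a median log2 ratio to the other controls of 0.24 over the 2242 shortest tested genes and of -0.28 over the 2242 longest. Of the 14 lymphatic and pan-endothelial markers 6 had enough counts to be tested, and 1 of them, Stab1, was called higher. Over all tested genes 1.16% were called higher. Nr2f2 had 146 ± 3.46 CPM with red blood cells and 161 ± 1.38 CPM in the controls (CPM, each count divided by the sum of its library and scaled to a common total; SD, n = 3), while Cdh5 had 0.203 ± 0.116 CPM with red blood cells and 0.134 ± 0.146 CPM in the controls. Pdpn had 0.037 ± 0.032 CPM with red blood cells and 0.112 ± 0.0035 CPM in the controls. Kdr, Tek and Sox18 had 1 to 3 counts over the treated libraries and 0 to 3 over the controls. The markers Cdh5, Pdpn, Kdr, Tek and Sox18 were thus near 0, and Prox1, Lyve1 and Emcn were not analysed here. The 6 tested markers had counts in every library. Besides Nr2f2, mean CPM with red blood cells and in the controls was 361 and 272 for Nrp2 and 98.96 and 99.28 for Eng. In the same order it was 63.5 and 30.9 for Stab1, 13.75 and 14.98 for Pecam1 and 3.52 and 3.62 for Flt4. Some markers of other cell types were abundant, with Krt8, an epithelial keratin, at 390 ± 6.65 CPM with red blood cells and 448 ± 34.3 CPM in the controls. The collagen gene Col1a2 had 448 ± 9.93 CPM with red blood cells and 464 ± 25.8 CPM in the controls, and Msln, a mesothelial marker, 190.2 ± 3.50 CPM with red blood cells and 187 ± 1.96 CPM in the controls. Most members of these lists were too low to test: 3 of 8 epithelial and mesothelial and 2 of 8 fibroblast and mural markers were tested. Krt5, Krt19 and Col1a1 had 1, 1 and 4 counts over the treated libraries and 0, 2 and 6 over the controls. These values do not establish the labelled cell type.

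The sequences upstream of Lif and Il6 are shown because these are the ligands that were higher in every treated library, and that of Socs3 because it is the feedback gene through which STAT3 signalling is often read. RefSeq windows of build GRCm38.p6 matched all 9 members by symbol, with 11 windows in all; the counts rest on another build, GRCm39, so these coordinates are those of the RefSeq table alone. Each line gives the 250 bases before the annotated start, 5′ to 3′ on the gene's strand, with matches to 3 searched motifs in capitals. Lif lies on the plus strand at chr11:4257318-4257567, Il6 on the plus strand at chr5:30012864-30013113 and Socs3 on the minus strand at chr11:117969367-117969616.
Lif: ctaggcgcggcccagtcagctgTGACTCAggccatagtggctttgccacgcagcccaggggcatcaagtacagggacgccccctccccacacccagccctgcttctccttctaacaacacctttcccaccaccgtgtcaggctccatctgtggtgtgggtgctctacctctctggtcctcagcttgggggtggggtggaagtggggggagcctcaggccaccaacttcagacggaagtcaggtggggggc
Il6: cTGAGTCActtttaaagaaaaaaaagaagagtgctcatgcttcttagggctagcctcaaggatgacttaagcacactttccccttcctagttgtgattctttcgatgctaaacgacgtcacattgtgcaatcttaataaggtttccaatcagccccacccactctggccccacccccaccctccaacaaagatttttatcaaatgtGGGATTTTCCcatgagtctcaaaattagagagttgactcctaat
Socs3: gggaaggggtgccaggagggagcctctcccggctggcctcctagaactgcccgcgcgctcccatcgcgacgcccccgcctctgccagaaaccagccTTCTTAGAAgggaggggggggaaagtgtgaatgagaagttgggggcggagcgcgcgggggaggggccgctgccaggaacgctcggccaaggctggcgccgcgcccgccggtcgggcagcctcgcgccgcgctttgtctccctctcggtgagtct
The capitals mark the AP-1 heptamer TGANTCA in Lif and Il6, the 10-base consensus of NF-kB in Il6, and the STAT palindrome TTCNNNGAA in Socs3. Both strands were searched and no match overlapped another. The match in Lif starts 228 bases before the annotated start, those in Il6 start 249 (AP-1) and 44 (NF-kB) bases before it, and that in Socs3 starts 154 bases before it. Among all 32851 windows of this length 6.75% hold the AP-1 heptamer, 3.90% the NF-kB consensus and 7.02% the STAT palindrome. Among the other 6 members only a window of Il11 held any of these, an AP-1 heptamer. A match describes letters and does not show that a factor binds there.

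With red blood cells, Lif rose 1.82-fold, and it was the 1 family member of 9 that passed an adjusted p of 0.05; none was lower. Over all genes tested 1.46% were called, 1.16% higher and 0.303% lower. Il6, Osmr and Il6st were also above every control in each treated library, with fold changes of 1.50, 1.38 and 1.36, but none of these 3 passed the threshold. Libraries parted in this way, treated above control, in 4 of 9 members and in 10.4% of all tested genes. The median log2 fold change of the family was 0.20, and that of all tested genes -0.0027. Il11, Lifr, Il6ra, Stat3 and Socs3 had overlapping groups. In RNA of whole cultures, more cells of a type and more RNA per cell cannot be told apart.

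**Figure D1:**
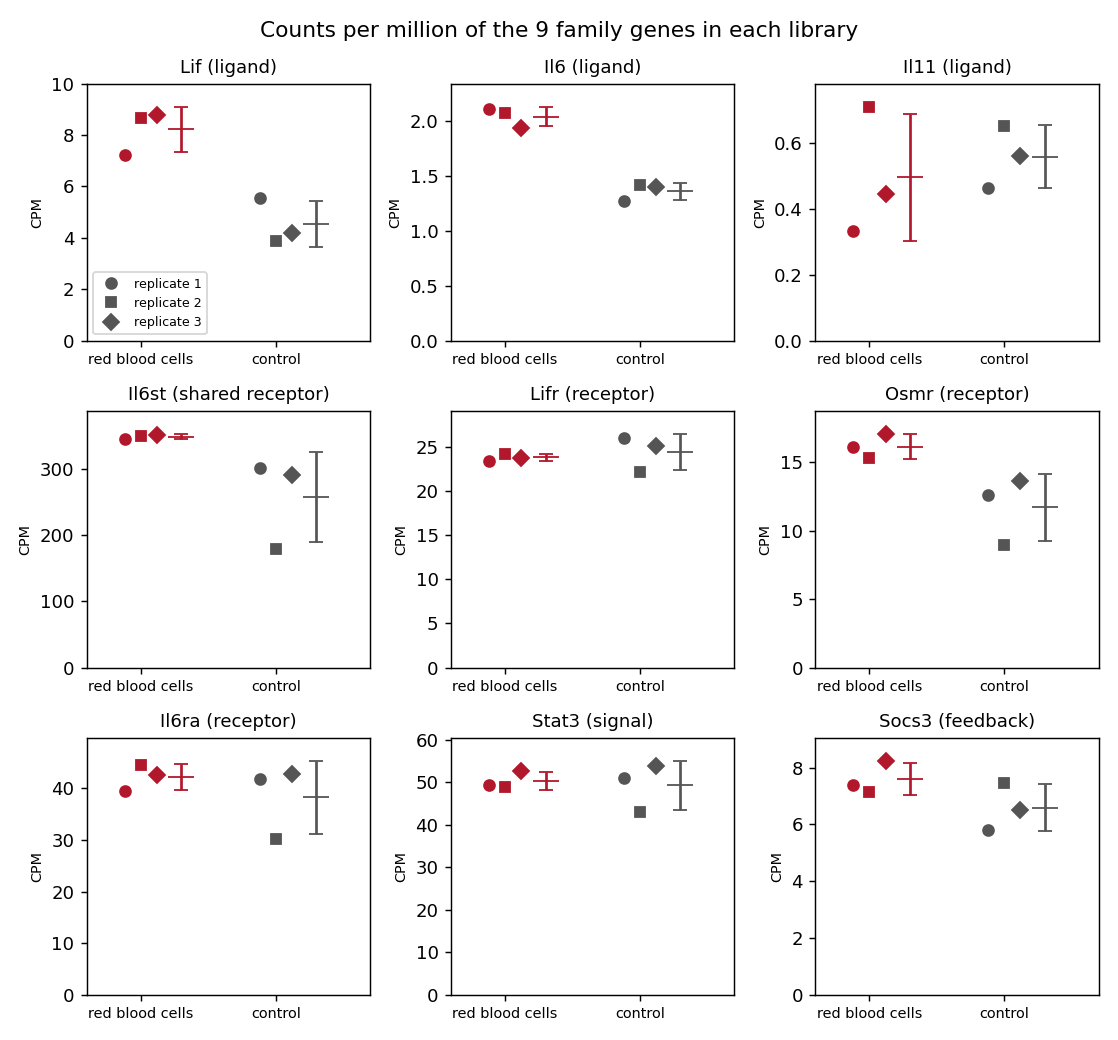
CPM of the 9 family genes, with 1 point per library, its shape giving the replicate number, and the mean ± SD of 3 libraries beside the points. Treated libraries lie above all controls for Lif, Il6, Il6st and Osmr, and control replicate 2 is the lowest library for Il6st, Osmr, Il6ra, Lif, Lifr and Stat3.

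Lif encodes leukemia inhibitory factor, the ligand of the LIFR and gp130 pair. It had 7.22, 8.68 and 8.77 CPM in treated replicates 1 to 3, against 5.56, 3.86 and 4.20 CPM in control replicates 1 to 3. The lowest treated library was thus above the highest control, and the controls spread as widely as the treated libraries, with means of 8.22 ± 0.869 CPM in treated and 4.54 ± 0.898 CPM in control cells (SD, n = 3 each). edgeR's quasi-likelihood test gave a log2 fold change of 0.86 ± 0.15 (SE) and a Benjamini-Hochberg adjusted p of 0.0279 over all tested genes. The summed counts, 447 in treated and 242 in control libraries, gave a ratio of 1.82 with an exact 95% interval of 1.55 to 2.14, which covers counting error only. The call did not hold without control replicate 3 (adjusted p = 0.113) or without treated replicate 1, 2 or 3 (0.0639, 0.177 and 0.147), although the log2 fold change stayed between 0.75 and 1.03 with any library left out.

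Il6 encodes interleukin 6, the cytokine that gives the family its name. It was detected in every library at low counts, 38, 38 and 35 in treated replicates 1 to 3, against 22, 26 and 25 in control replicates 1 to 3. On the CPM scale the treated libraries lay at 2.11, 2.07 and 1.94 and the controls at 1.27, 1.41 and 1.40, so the groups did not overlap and each was tight. The log2 fold change was 0.58 ± 0.17 (SE) with an adjusted p of 0.234 in edgeR. The ratio of summed counts was 1.50 with an exact 95% interval of 1.10 to 2.04 for counting error. DESeq2 gave an adjusted p of 0.826, while limma on log2(FPKM + 1) gave 0.0369. That limma fit models the variance by mean FPKM level rather than by count. In edgeR Il6 thus did not pass, although its groups did not overlap.

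Il11, the third ligand, whose receptor chain is Il11ra1, was close to the lowest level that could be tested. It had 6, 13 and 8 counts with red blood cells and 8, 12 and 10 in the controls, which overlap fully. Its fold change of 0.888 had a 95% interval from 0.507 to 1.56, and a difference within that interval was not detectable at this depth.

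Il6st, the shared gp130 chain, was the most abundant member. It had 344, 350 and 351 CPM in the treated libraries, against 301, 179 and 290 CPM in control replicates 1 to 3. The treated libraries lay within a few CPM of each other, whereas control replicate 2 was far below its fellows, with a log2 ratio of -0.72 to them. With all libraries the log2 fold change was 0.44 ± 0.16 (SE) and the adjusted p 0.391 in edgeR. Without control replicate 2 the difference was smaller and its error smaller still, at 0.24 ± 0.033, and it passed with an adjusted p of 9.76e-08; in that fit 4.19% of 11297 tested genes were called higher and 3.77% lower.

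Osmr, the receptor chain for oncostatin M, followed the same course at a much lower count. It had 16.1, 15.3 and 17.0 CPM with red blood cells, against 12.6, 8.92 and 13.6 CPM in control replicates 1 to 3, and the groups did not overlap. The log2 fold change was 0.47 ± 0.14 (SE) with an adjusted p of 0.260 over 6 libraries, and 0.30 ± 0.090 with an adjusted p of 0.0227 without control replicate 2, both in edgeR. Its ligand Osm, a product mainly of leukocytes, had 1 count over the treated libraries and 0 over the controls, where 3 counts correspond to 0.0561 CPM.

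Lifr, the partner of gp130 for LIF, did not pass the test that its ligand passed. It had 23.4, 24.2 and 23.8 CPM in the treated libraries, against 26.0, 22.1 and 25.1 CPM in control replicates 1 to 3, so every treated value lay inside the range of the controls. The fold change was 0.977 with a 95% interval from 0.865 to 1.10 (adjusted p = 0.881 in edgeR). Il6ra, which binds interleukin 6 itself, had 39.4, 44.4 and 42.5 CPM with red blood cells and 41.8, 30.1 and 42.7 CPM in control replicates 1 to 3. Only control replicate 2 lay apart from the other values of Il6ra, and its fold change of 1.10 had a 95% interval from 0.911 to 1.34. Without that library the log2 fold change of Il6ra was -0.0039 ± 0.057 (SE).

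Stat3, the transcription factor at which the receptors converge, had 49.4, 48.9 and 52.8 CPM with red blood cells, against 51.0, 42.9 and 53.9 CPM in control replicates 1 to 3. The groups overlapped, and the fold change of 1.02 had a 95% interval from 0.894 to 1.17. Socs3, the feedback inhibitor whose upstream sequence holds the STAT palindrome printed above, had 7.39, 7.15 and 8.22 CPM in the treated libraries. The controls had 5.79, 7.45 and 6.50 CPM of Socs3, so control replicate 2 overlapped the treated group. Its log2 fold change was 0.20 ± 0.12 (SE; adjusted p = 0.612 in edgeR) and 0.30 ± 0.13 without control replicate 2 (adjusted p = 0.164), with a 95% interval of 0.952 to 1.39 for the fold change over 6 libraries. A response of Socs3 as large as that of Lif lay outside this interval.

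Control replicate 2 lay below the other controls in the members with longer gene models and above them in the shorter ones, but its distance did not follow length. Its log2 ratio to them was -0.21 in Lifr, the longest, against -0.72 in Il6st, -0.55 in Osmr and -0.49 in Il6ra. The fifth of tested genes with a median length of 5202 bases had a median ratio of -0.12. The 6 members in which control replicate 2 was below the mean of the other controls, Il6st, Osmr, Il6ra, Lif, Stat3 and Lifr, had models of 3377 to 10750 bases. The 3 in which it was above, Socs3, Il11 and Il6, had models of 1141 to 2738 bases. An offset for each library's trend with length, added after this was seen, gave log2 fold changes of 0.41 ± 0.12 for Il6st and 0.44 ± 0.12 for Osmr (SE; adjusted p = 0.129 and 0.0851 in edgeR), and 0.82 ± 0.14 for Lif (adjusted p = 0.00761). With that offset 1.85% of the tested genes were called higher and 1.21% lower. In limma voom with library quality weights, where control replicate 2 counted least, Lif, Il6st and Osmr were called, against 3.23% of tested genes called higher.

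**Figure D2:**
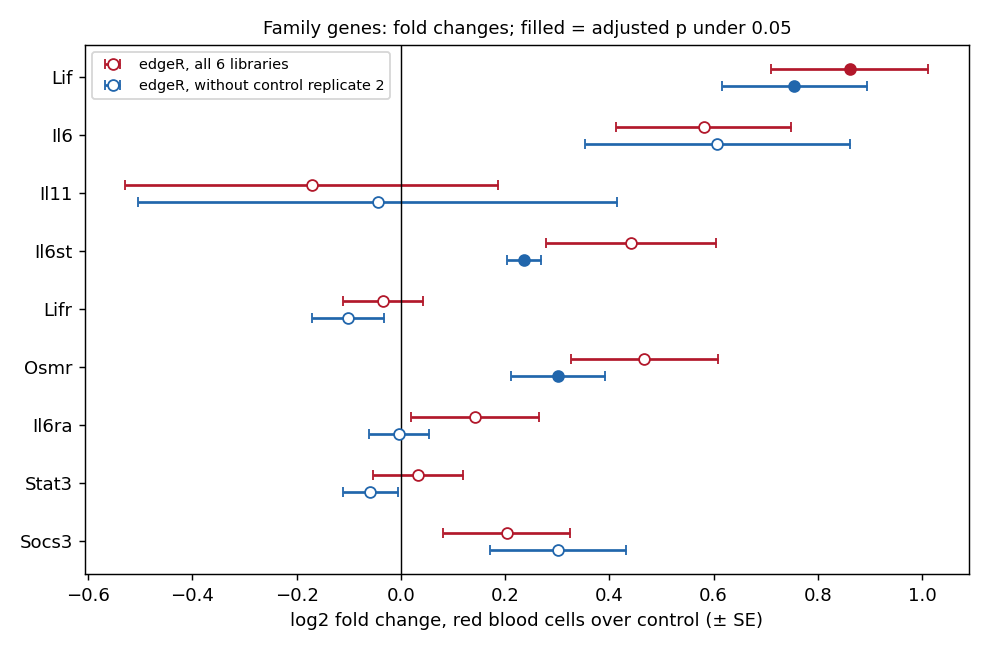
Log2 fold change (red blood cells over control) ± SE of the 9 family genes in edgeR, with all 6 libraries and without control replicate 2; filled points passed an adjusted p of 0.05. Lif passed in both fits, and Il6st (0.24) and Osmr (0.30) passed without control replicate 2.

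Levels per gene length differed far more between members than between the groups. On the FPKM scale (counts scaled to gene model length and library total) Il6st led with 61.0 ± 0.627 in treated cells and 45.0 ± 11.8 in controls (SD, n = 3 each). Il6ra followed with 12.5 ± 0.742 FPKM in treated cells and 11.3 ± 2.07 in controls, and Stat3 with 11.1 ± 0.454 FPKM in treated cells and 10.8 ± 1.25 in controls. These 3 genes were thus well above the rest of the family in both groups. In treated cells Osmr had 3.19 ± 0.175, Socs3 2.78 ± 0.205 and Lifr 2.21 ± 0.039 FPKM, against 2.31 ± 0.486 for Osmr, 2.41 ± 0.305 for Socs3 and 2.27 ± 0.187 for Lifr in controls. The ligands were lowest, with Il6 at 1.79 ± 0.0771, Lif at 1.50 ± 0.159 and Il11 at 0.181 ± 0.0706 FPKM in treated cells, against 1.19 ± 0.0678 for Il6, 0.830 ± 0.164 for Lif and 0.204 ± 0.0346 for Il11 in controls. In treated cells no neighbours in this order overlapped between libraries. In control cells Socs3 ranked above Osmr, and Il6ra and Stat3, Socs3 and Osmr, and Osmr and Lifr overlapped.

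**Figure D3:**
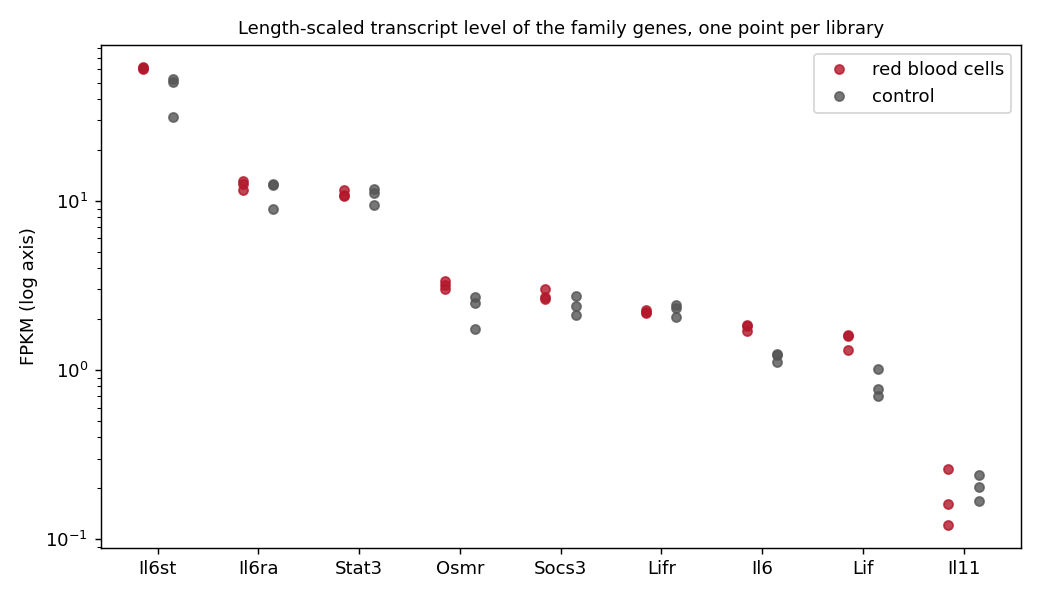
Level per gene length (FPKM, log axis) of the 9 family genes, with 1 point per library, treated libraries left of controls and genes in order of their treated mean. Il6st leads at about 61.0 FPKM in treated cells, Il6ra and Stat3 follow, and the ligands Il6, Lif and Il11 are lowest.

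Relative to Lifr, both Il6st and Osmr were higher in every treated library than in any control. The ratio of Il6st to Lifr in FPKM was 27.7, 27.2 and 27.8 in treated replicates 1 to 3, against 21.8, 15.3 and 21.8 in control replicates 1 to 3. The ratio of Osmr to Lifr was 1.46, 1.34 and 1.52 in treated cells, against 1.02, 0.855 and 1.15 in controls. Treated and control libraries did not overlap in either ratio. Il6st to Osmr gave 19.0, 20.3 and 18.3 in treated cells, against 21.3, 17.9 and 18.9 in controls, which overlap. These ratios were chosen after the values had been seen and carry no test.

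Of 62 other genes of the pathway, in 6 lists, 43 were tested, 3 were called higher and none lower by edgeR; without control replicate 2 these counts were 7 and 4 of 44. The 7 called higher include Saa3, which had 0 counts in every control and passed the filter there through the treated libraries alone. The median log2 fold change of the 43 tested genes was 0.029 over 6 libraries. Of all tested genes 1.16% were called higher and 0.303% lower over 6 libraries, against 4.19% higher and 3.77% lower without control replicate 2. None of the 24 tested genes for other ligands, receptor chains, kinases, STATs and inhibitors was called with all libraries.

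Among the other gp130 ligands 6 of 8 were analysed and 3 tested. Clcf1, cardiotrophin-like cytokine factor, had 126 ± 4.67 CPM with red blood cells and 142 ± 3.92 CPM in the controls (log2 fold change -0.17 ± 0.056 SE, adjusted p = 0.325 in edgeR). Per gene length it had 60.4 ± 2.23 FPKM in treated cells and 67.9 ± 1.87 in controls, the highest of the 6 ligand genes tested. The groups did not overlap in Clcf1, and it passed as lower without control replicate 2 (-0.16, adjusted p = 0.00382). Cntf, ciliary neurotrophic factor, had 2.56 ± 0.166 CPM in treated cells and 2.33 ± 0.384 in controls. Cntfr, the receptor chain that Clcf1 and Cntf bind, had 0 counts over the treated libraries and 1 over the controls. Of the receptor chains and the proteases that shed them, Il11ra1 had 5.81 ± 0.263 CPM in treated cells and 6.41 ± 0.733 in controls. Adam17, which cuts the interleukin 6 receptor from the cell surface, had 57.0 ± 2.60 CPM in treated cells and 58.0 ± 2.15 in controls, and its relative Adam10 474 ± 10.9 CPM in treated cells and 485 ± 36.5 in controls. Adam10 was lower by a log2 fold change of -0.093 without control replicate 2 (adjusted p = 0.0467 in edgeR), and not over 6 libraries (-0.031, adjusted p = 0.871).

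The kinases and adaptors stood close to their control levels. Of 9 tested genes of that list none was called over 6 libraries or without control replicate 2, and their median log2 fold change was 0.046. Jak1, the main kinase on gp130, had 226 ± 4.78 CPM in treated cells and 209 ± 11.5 in controls, and the phosphatase-adaptor Ptpn11 had 345 ± 3.19 CPM in treated cells and 319 ± 34.5 in controls. Gab1, a docking protein, and Stat5a had 35.4 ± 0.842 and 1.82 ± 0.205 CPM in treated cells, against 33.3 ± 1.60 CPM of Gab1 and 2.06 ± 0.252 CPM of Stat5a in controls. Of 9 tested inhibitors none was called in either fit, with a median of 0.012. The related suppressors Socs1 and Socs7 had 11.9 ± 1.56 and 72.0 ± 2.29 CPM in treated cells, against 11.3 ± 0.793 and 67.0 ± 8.70 CPM in controls. The phosphatases Ptpn6 and Ptpn1 had 35.8 ± 2.45 and 92.7 ± 1.60 CPM in treated cells, against 36.7 ± 1.14 and 90.9 ± 6.33 CPM in controls.

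In the list of genes known to be induced through STAT3, 2 of 12 tested genes rose and the others did not pass, with a median log2 fold change of 0.096. Over all tested genes 1.16% were called higher and 0.303% lower. Junb, an AP-1 subunit that other pathways also induce, had 46.8, 41.1 and 44.8 CPM in treated replicates 1 to 3, against 26.3, 28.3 and 26.7 CPM in control replicates 1 to 3 (log2 fold change 0.71 ± 0.071 SE, adjusted p = 0.00148 in edgeR). Il4ra, a receptor chain for interleukin 4, had 34.3, 32.8 and 34.0 CPM in treated replicates 1 to 3, against 27.6, 23.7 and 26.8 CPM in control replicates 1 to 3 (0.38 ± 0.073, adjusted p = 0.0453). In both genes the groups did not overlap, but Il4ra lost its call without any one library other than control replicate 2 (adjusted p up to 0.252). Of the 18 analysed genes of the list, untested ones included, 9 parted in this way, treated above control. Among all tested genes 10.4% did. In Bcl2l1 and Timp1 every treated library lay below every control. Bcl3, an IkB family protein, had 3.70 ± 0.258 CPM with red blood cells and 2.20 ± 0.843 in the controls, and Bcl2l1, an inhibitor of apoptosis, 60.0 ± 1.50 CPM with red blood cells and 70.8 ± 0.886 in the controls; neither passed over 6 libraries (adjusted p = 0.282 and 0.0903 in edgeR). Without control replicate 2, 6 of 13 tested genes of the list were called higher and 1 lower, in a fit that called 4.19% of all tested genes higher and 3.77% lower. The 6 include Saa3, which had 0 counts in every control and passed the filter there through the treated libraries alone. Junb and Il4ra were joined there by Bcl3 (log2 fold change 0.66), Cebpd (0.65), a C/EBP transcription factor of the acute phase, Myc (0.21), a growth regulator, and Saa3, while Bcl2l1 (-0.24) was lower. Saa3, an acute phase protein, was too low for the test over 6 libraries and had 36 counts over the treated libraries and 0 over the controls, a rise of at least 11.8-fold when the controls are set to a floor of 3 counts in all.

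Of 7 regulators of cytokine mRNA decay Zfp36l1 rose and none was called lower, against 1.16% of all tested genes called higher and 0.303% lower. Zfp36l1, which binds AU-rich elements and promotes the decay of the transcripts that carry them, had 93.4, 86.9 and 96.2 CPM in treated replicates 1 to 3, against 69.5, 68.2 and 68.8 CPM in control replicates 1 to 3 (log2 fold change 0.42 ± 0.060 SE, adjusted p = 0.00892 in edgeR). The controls were nearly level in this gene. Its relative Zfp36l2 had 112 ± 2.73 CPM with red blood cells and 135 ± 10.5 in the controls (-0.27 ± 0.067, adjusted p = 0.135 in edgeR). Without control replicate 2 Zfp36l2 passed as lower (-0.33, adjusted p = 2.01e-09), in an edgeR fit that called 3.77% of tested genes lower. Zc3h12a, the nuclease Regnase-1 that degrades Il6 mRNA, had 18.1 ± 0.412 CPM with red blood cells and 16.8 ± 1.25 in the controls, and Arid5a, which protects that mRNA, 10.2 ± 1.09 CPM with red blood cells and 9.15 ± 0.452 in the controls. Neither of these passed the threshold. Zfp36l1 lost its call without treated replicate 1 or 3 (adjusted p = 0.0748 and 0.0794).

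**Figure D4:**
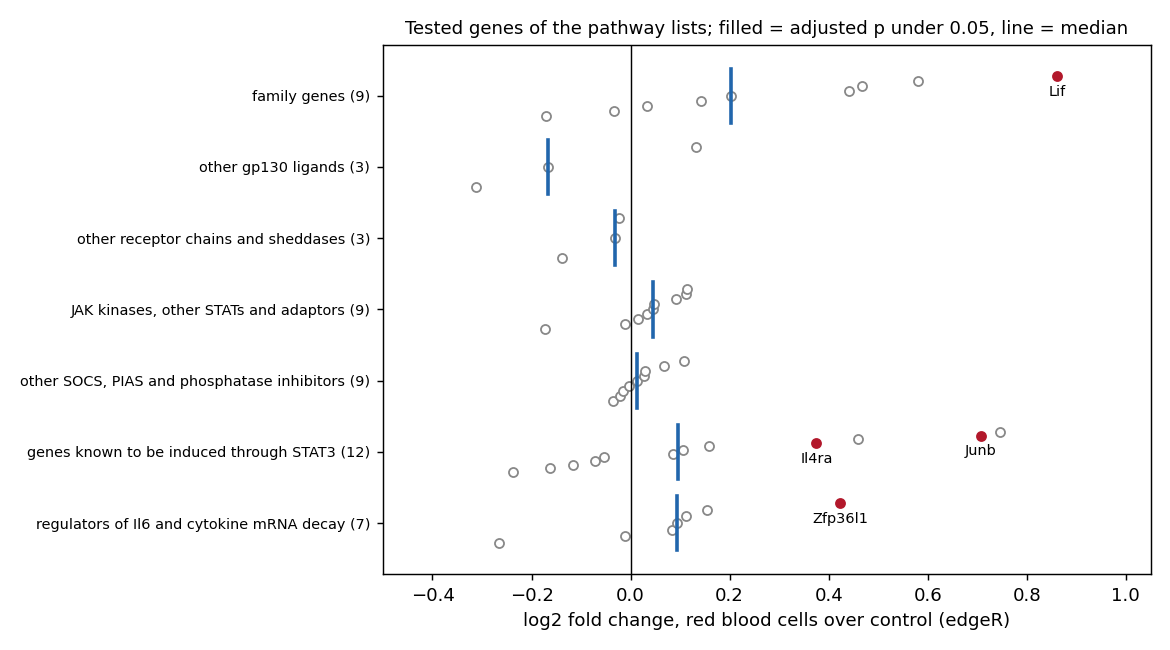
Log2 fold change (red blood cells over control, edgeR, 6 libraries) of the tested genes of the family and of 6 lists of other pathway genes, with 1 point per gene, filled where the adjusted p was under 0.05, and a line at each list's median. Lif, Junb, Il4ra and Zfp36l1 are the filled points, and the kinases and inhibitors lie near 0.

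Among 9654 other tested genes of at least 5 CPM, the profile most like that of Lif over the 6 libraries was that of Abcb1a, a drug efflux pump, with a root mean square difference of 0.115 between the centred log2 CPM values. Next came Bahcc1 (0.119), the sugar phosphate transporter Slc37a1 (0.126), the chemokine Cx3cl1 (0.131) and the transglutaminase Tgm2 (0.152). These 5 were themselves called higher, with log2 fold changes from 0.74 to 0.94, as the measure selects genes that part the groups the way Lif does.

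RNA of blood cells was higher in the same 3 libraries as Lif. The summed level of the erythroid list was 579 to 666 CPM with red blood cells and 39.8 to 44.6 CPM in the controls, and 5 of 6 tested members were called higher. Of 14 leukocyte markers 12 were analysed and 6 tested, of which 4 were called higher. Over all tested genes 1.16% were called higher. Ptprc, Cd74 and Lyz2, and among the erythroid genes Hba-a1, Hba-a2, Hbb-bt and Alas2, passed the low-count filter only through the treated libraries. The counts of calls in both lists therefore depend on that filter and are no separate test. The summed level of the leukocyte markers was 51.9 to 56.7 CPM with red blood cells and 43.0 to 49.6 CPM in the controls, most of it Csf1r and Cd68, which were not called. The defining marker Ptprc (CD45) had 36 counts over the treated libraries, and Ptprc, Cd74, Ms4a1 and Tyrobp were at 0 in every control library. The part of white cells in the values of Lif, Il6, Osmr and Il6st was not tested.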

How the data were processed

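Groups and replicate numbers came from the sample titles, and RNA was extracted with TRIzol and made into stranded poly(A) libraries per the labels' protocols. The authors deposited raw counts per gene symbol without normalization, and FPKM values of the same genes. Their ratio showed that the authors scaled FPKM by each library's summed counts (largest relative departure 3.4e-08 over 10882 genes), so both tables hold the same reads. The submitters' processing notes name the build GRCm39; the aligner, the counter and the annotation are not stated in the labels. Strand use in counting is not stated, so reads of overlapping genes on opposite strands may not be told apart.

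Counts of all genes were fitted with edgeR 4.0.16 (R 4.3.3; filterByExpr with minimum count 10 and total 15, TMM scaling, glmQLFit and glmQLFTest, two-sided) and adjusted by the Benjamini-Hochberg method over 11208 genes, which hold 99.96% of the counts; a gene was called under 0.05. Intervals of fold changes use the t distribution of that fit. Where a library was left out, the filter was rerun. Alternatives used DESeq2 1.42.0, limma 3.58.1, other scalings and filters, the replicate number as a block, each library left out, and limma on log2(FPKM + 1) where a group's mean reached 1 FPKM. The pipeline was tested on simulated counts, where the share of false genes among those called was above the nominal threshold and the smallest simulated fold change was missed in most genes. Exact (Clopper-Pearson) intervals and floors of 3 counts cover counting error only, since PCR copies cannot be told from separate molecules.

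The members and lists were chosen with earlier results of these data known. Text names all members, and from each list up to 4 tested genes in order of p and all called ones. Genes beyond this (Cebpd, Myc, Saa3, Timp1, Osm, Cntfr) were chosen after their values were seen. Some listed genes are not reported here. Likeness to a called member used log2 CPM with a prior count of 2.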

Additional observations from a re-analysis of the deposited data

How the results depend on the processing

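The count of family members called higher (1, with none lower) was unchanged under RLE or no scaling, DESeq2, voom, either other low-count filter (none, or 1 CPM in 3 libraries), the erythroid genes left out, the length offset, and FPKM with a pseudocount of 0.1 or no filter, where Il6 and not Lif was the called member. It was 3 with voom and library quality weights, 2 with FPKM and a pseudocount of 1, and 0 to 3 with a library left out. In voom with quality weights, where control replicate 2 had a weight of 0.119, 362 genes of the whole table were called higher and 289 lower (130 and 34 in edgeR), and 5 and 3 of the other pathway genes (3 and 0 in edgeR). The length offset gave 207 and 136 genes, and 2 lower pathway genes; DESeq2 gave 60 lower genes. With a library left out, 60 to 473 genes were called higher and 2 to 426 lower, and 1 to 7 and 0 to 4 of the pathway genes; the upper ends came without control replicate 2, where all 164 genes called over 6 libraries were called again. The cause of these shifts was not tested. Of 981 refitted fold changes of 52 family and pathway genes, 939 stayed on the same side of the threshold, 19 lost a call and 23 gained one, and none that was called in either fit changed sign.

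Replicate numbers gave no clear pairing of the libraries: deviations of same-numbered libraries correlated at -0.014, 0.045 and 0.063. Control replicates 2 and 3 correlated best with the treated library of their own number, and control replicate 1 with treated replicate 3 (0.034). Values this near 0 cannot decide whether the libraries were paired. With the replicate number as a block 0 family members passed (Lif adjusted p = 0.0581, log2 fold change 0.86), and 13 genes of the whole table were called lower. Depth limits Il6 and Il11, with under 40 counts per library for Il6 and under 15 for Il11.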
